A study of Homo sapiens with 4 samples.

Results

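Cross-linked sites in 3′UTRs made up 52990 of the 270283 sites that were deposited for PDCD4 and its IgG control. A site was taken when its position lay, on its own strand, in a 3′UTR exon of any GENCODE release 44 transcript and in no coding sequence (CDS), whatever its score. The PDCD4 list contributed 33419 of its 158922 sites and the IgG list 19571 of its 111361 sites. The rule used the position alone, so scores, genes, base composition and place within the UTR were free to vary. A further 56 PDCD4 and 22 IgG sites lay on a stop codon outside any CDS and were left out.

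The 3′UTR is the stretch of an mRNA between the stop codon and the poly(A) tail. It is not translated, and it carries much of the sequence through which RNA-binding proteins and miRNAs set the stability, localisation and translation of a transcript. PDCD4 is an RNA-binding tumour suppressor best known as an inhibitor of the helicase eIF4A1, and it has been found on coding sequences and UTRs of individual mRNAs. In iCLIP, UV light links protein to RNA in living cells, the protein is immunoprecipitated, and the cDNAs made from the attached RNA tend to end next to the cross-linked base.

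All 4 samples were wild-type MCF10A cells, an established, non-transformed line of human breast epithelium with basal features, grown with horse serum, epidermal growth factor, insulin, hydrocortisone and cholera toxin. PDCD4 antibody was used for 2 of the samples and control IgG for the other 2. The question addressed here is where in 3′UTRs, and in which genes, the sites of PDCD4 lie relative to those of the control. The authors pooled the replicates into 1 list per immunoprecipitation, and nothing says whether they were separate cultures, so no spread between replicates can be given and no test between PDCD4 and IgG was possible. Intervals are at 95% and cover counting error only.

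Each listed site is 1 base wide, and its score is the number of cDNAs counted there. Only sites that passed peak calling are listed, so a gene without a site is not a gene without cDNAs. The lists held 409308 (PDCD4) and 276139 (IgG) cDNAs in all. Of the basal breast epithelial markers, KRT5, KRT17, CDH3, ITGB4, LAMB3 and TP63 had sites in both lists, counting any region, and KRT14 had 1 PDCD4 site. Markers of fibroblasts (COL1A1, COL3A1, PDGFRB), immune cells (PTPRC, CD3E) and endothelium (PECAM1, VWF) had none, and nor did the luminal marker PGR. Of the other luminal markers, ESR1 had 1 site in the PDCD4 list and GATA3 had 4 sites in each list.

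Some of the 3′UTR sites with the highest scores are shown with 15 bases before the listed base and 14 after it, because they give the range of sequence found, from pure U or dinucleotide repeats to mixed sequence. They were read from GRCh38 on the transcribed strand, 5′ to 3′, and the listed base is in capitals. From the PDCD4 list, the sequences are from the UTRs of EIF5A (score 19, chr17:7312111-7312140, plus strand), ACTB (score 18, chr7:5527560-5527589, minus strand) and TMEM107 (score 23, chr17:8173527-8173556, minus strand). From the IgG list, they are from HDGF (score 11, chr1:156742754-156742783, minus strand), TNS4 (score 10, chr17:40476378-40476407, minus strand), PTGES (score 9, chr9:129738414-129738443, minus strand) and ACLY (score 9, chr17:41867067-41867096, minus strand).
EIF5A: tttttttttttttttTtttaattcaatctg
ACTB: aggtgacagcagtcgGttggagcgagcatc
TMEM107: cctccggagggcagaTtagaacatgatgat
HDGF: ggggcttccaagttgTtcgggccaaggacc
TNS4: acacacacacacacaCacacacacacacac
PTGES: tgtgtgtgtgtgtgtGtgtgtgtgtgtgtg
ACLY: tcttatgttctctgtAtttatgcagctgat

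The EIF5A site lay in a run of U, and the highest IgG sites of TNS4 and PTGES lay in runs of CA and GU. None of these 7 positions was in the other list. The TMEM107 site also lay within an ncRNA gene on the same strand, as did all 27 PDCD4 sites of this UTR, so their 188 cDNAs cannot be assigned to the mRNA. Such overlap was otherwise rare. Exons of ncRNA genes covered 242 of the PDCD4 and 119 of the IgG sites, and the annotated 3′UTR was the sole annotation for 72.0% and 71.4%. Most of the other sites also lay in an intron of another transcript (9128 and 5522 sites).

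Of all PDCD4 sites 21.03% (20.8 to 21.2) lay in 3′UTRs, and of all IgG sites 17.6% (17.4 to 17.8). On the log2 scale the ratio of the shares was 0.26 (0.23 to 0.28), whereas that of the CDS was 1.10 (1.07 to 1.14), with 33222 and 10827 sites. Relative to the control, sites in 3′UTRs were therefore raised far less than sites in coding sequence. Of the sites in either region, those in 3′UTRs made up 50.1% (49.8 to 50.5) in the PDCD4 list but 64.4% (63.8 to 64.9) in the IgG list.

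The 3′UTR sites were of low score. The median was 2 cDNAs in both lists, and the highest score was 23 for PDCD4 and 11 for IgG. Scores greater than 5 were held by 463 PDCD4 sites (1.39%) and 137 IgG sites (0.70%), and scores greater than 10 by 34 and 1. At a score of 1, 29.5% (28.7 to 30.3) of PDCD4 sites and 24.7% (23.6 to 25.8) of IgG sites lay in 3′UTRs. At scores of 2 to 10 the PDCD4 share stayed between 19.9% and 20.95%, and above 10 it was 12.1% (8.76 to 16.4). In the IgG list it was 16.6% at a score of 2 and 20.02% (18.4 to 21.8) at 5. From a score of 5 up to 10 the intervals of the lists overlapped, and the higher PDCD4 share was seen at scores of 1 to 4.

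**Figure D1:**
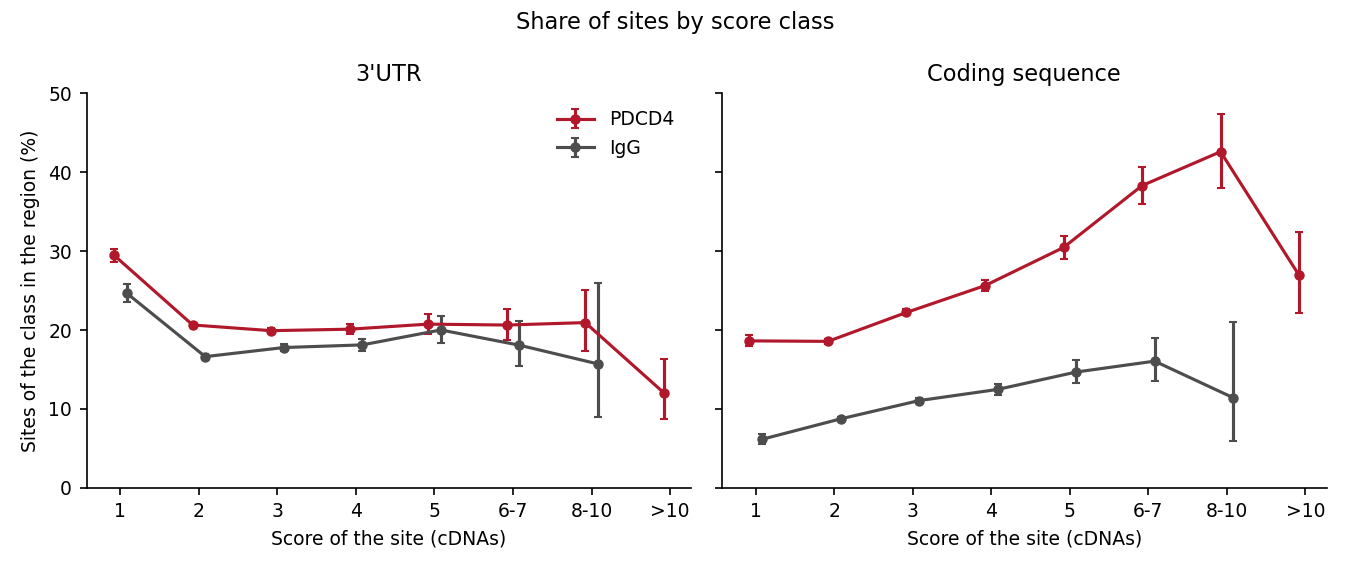
Percentage of the sites of each score class (x axis, cDNAs per site) that lay in 3′UTRs (left) or in coding sequence (right), for the PDCD4 list (red) and the IgG list (grey). Bars are 95% Wilson intervals, classes of fewer than 50 sites are not drawn, and in 3′UTRs the lists lie close together at every score while in coding sequence they separate.

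The sites lay in the 3′UTRs of 6780 genes for PDCD4 and 5698 for IgG. Both lists held 4545 of these genes, which is 67.0% of the PDCD4 genes and 79.8% of the IgG genes. On 1 transcript per gene, 31011 PDCD4 sites (92.8%) and 17976 IgG sites (91.9%) could be placed, in 6232 and 5180 UTRs. A single site was found in 32.4% of the PDCD4 UTRs and 40.6% of the IgG UTRs. At the other extreme, 795 UTRs with 10 or more sites held 49.7% of the placed PDCD4 sites, and 346 such UTRs held 31.8% of the IgG sites.

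The same base was rarely in both lists. The 324 shared positions were 0.97% of those of PDCD4 and 1.66% of those of IgG. The methods describe that IgG sites were taken out of the PDCD4 replicates ahead of peak calling, and the part of this step in the small number was not tested. Within 20 bases of a site of the other list lay 15.1% (14.8 to 15.5) of PDCD4 sites and 19.3% (18.7 to 19.8) of IgG sites. Whether this nearness differs from that in other regions was not tested. With shared positions of all regions left out, the 3′UTR share of all sites went from 21.03% to 20.92% for PDCD4. For IgG it went from 17.57% to 17.40%. Both changes were small and lay within the counting intervals. The same base was thus shared no more rarely in 3′UTRs than over all listed sites.

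Along the UTR, sites of both lists lay towards the stop codon. The median distance in spliced bases was 807 from the stop codon for PDCD4 (quartiles 309 and 1832) and 995 for IgG (393 and 2074). From the transcript end the medians were 1369 and 1460 bases. As a percentage of UTR length, the median position of PDCD4 sites was 37.6% (37.1 to 38.1) and that of IgG sites 40.2% (39.5 to 40.9). The first 10% of the UTR held 16.05% of PDCD4 and 13.97% of IgG sites, against 9.85% and 9.84% if sites were spread evenly over the same UTRs. The last 10% held 5.87% and 6.55%, against 10.1% for both.

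PDCD4 sites with scores greater than 5 lay at a median of 479.5 bases from the stop codon and IgG sites of that score at 729, but as a percentage of UTR length the PDCD4 median was 37.8% (35.6 to 40.8), close to that of all PDCD4 sites. The difference between the lists was small within the same UTRs. In the 880 UTRs with at least 5 sites in each list, the median position in the PDCD4 list was nearer the stop codon in 468 and that of the IgG list in 412, and the median difference was -1.66 percentage points.

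The border between CDS and 3′UTR showed no sharp change. In 2095 transcripts with at least 200 coding bases and 400 UTR bases in the exon of the stop codon, the first 100 UTR bases held 460 PDCD4 sites and the last 100 coding bases 440, a log2 ratio of 0.06 (-0.12 to 0.25). The IgG numbers were 197 and 170 (0.21, -0.08 to 0.51). Neither interval excludes equal numbers. Over 200 bases on each side, UTR sites outnumbered coding sites in both lists, by 1004 to 829 for PDCD4 (log2 ratio 0.28, 0.14 to 0.41) and by 480 to 336 for IgG (0.51, 0.31 to 0.72).

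The other end of the UTR was nearly empty in both lists. In UTRs of at least 200 bases, the last 60 bases held 85 PDCD4 sites and the 60 bases before them 1105, a log2 ratio of -3.70 (-4.02 to -3.38). For IgG the numbers were 52 and 535 (-3.36, -3.77 to -2.95). Just after the stop codon the change was slight, with 1317 PDCD4 sites in the first 60 bases and 1638 in the next 60 (-0.31, -0.42 to -0.21), and 585 and 780 for IgG (-0.42, -0.57 to -0.26). Past the annotated end, 100 bases held 20 PDCD4 and 22 IgG sites in 5737 transcripts, against 1207 and 656 in bases 61 to 160 before it. The empty stretch was thus common to PDCD4 and the control.

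**Figure D2:**
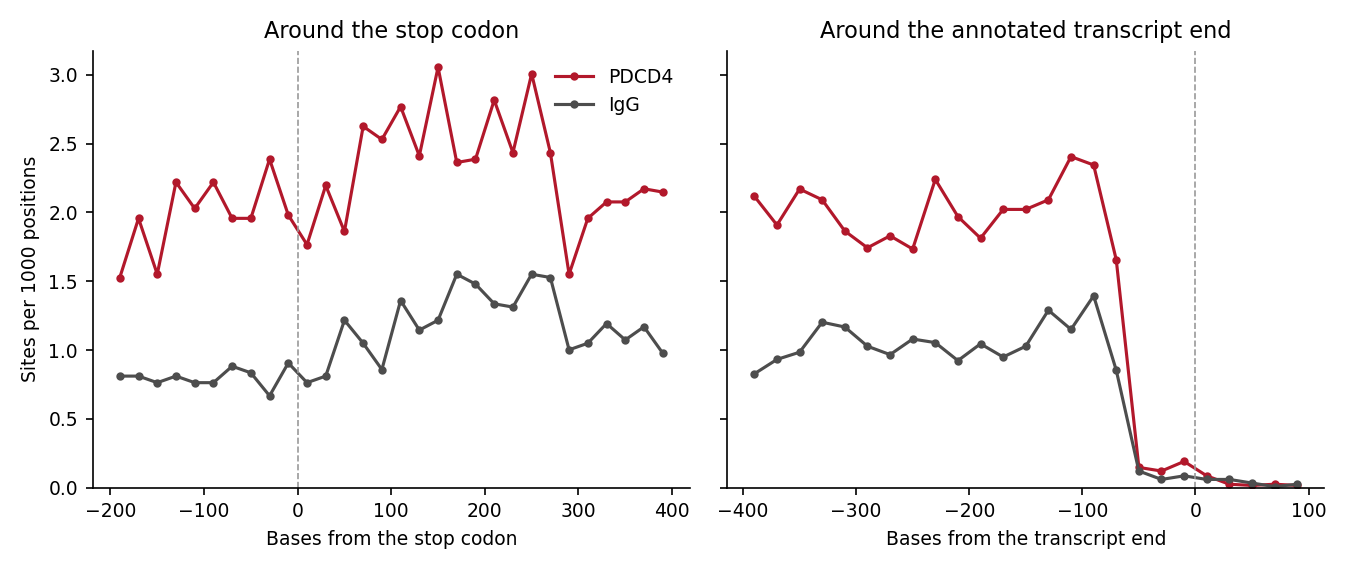
Sites per 1000 positions in bins of 20 bases around the stop codon (left, 2095 transcripts, coding side to the left of 0) and around the annotated transcript end (right, 5737 transcripts with a last exon part of at least 500 UTR bases), for PDCD4 (red) and IgG (grey). Both lists pass the stop codon with no step and fall together to near 0 about 60 bases before the transcript end.

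UTRs with sites were long. The median length was 2045 bases for PDCD4 and 2292 for IgG. Among the 7465 genes with a coding site in either list, taken here as transcripts present in the experiment, UTRs with a PDCD4 site had a median of 2030.5 bases and those without one 598. For IgG the medians were 2281 and 666.5. A longer UTR offers more positions, so the number of sites per kb was also compared.

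Per kb of UTR, PDCD4 sites became sparser with length, and IgG sites did so much less. UTRs below 500 bases held 3.21 (3.04 to 3.38) PDCD4 sites per kb, those from 1000 up to 2000 bases 2.45 (2.39 to 2.51), and those of 4000 or more 1.20 (1.17 to 1.22). The IgG values were 1.14 (1.05 to 1.25), 1.28 (1.24 to 1.33) and 0.76 (0.74 to 0.78). The ratio of PDCD4 to IgG shares thus fell from 0.97 (0.83 to 1.12) on the log2 scale in the shortest UTRs to 0.14 (0.09 to 0.19) in the longest. Coding sites of the same genes moved the same way over a smaller range, from 1.32 (1.24 to 1.39) to 0.91 (0.82 to 0.99). The length of the UTR and other properties of these genes, such as RNA amount, cannot be told apart here.

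**Figure D3:**
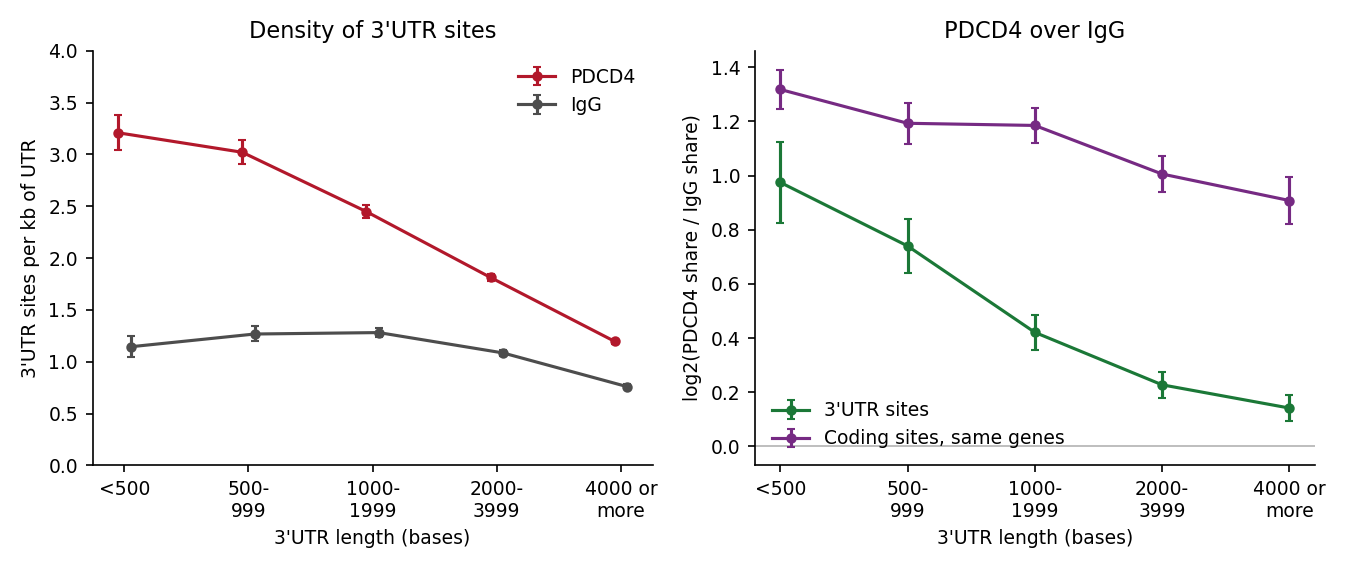
Left, 3′UTR sites per kb of UTR by UTR length class for PDCD4 (red) and IgG (grey) in genes with a coding site in either list; right, log2 ratio of the PDCD4 to the IgG share of sites by the same classes, for 3′UTR sites (green) and for coding sites of the same genes (purple). Bars are 95% counting intervals, and the ratio of 3′UTR sites falls from 0.97 to 0.14.

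Sites in 3′UTRs stood on U in both lists. U was the listed base at 52.8% (52.3 to 53.4) of PDCD4 sites and at 54.5% (53.7 to 55.2) of IgG sites, whereas it made up 29.996% and 31.1% of all positions of the same UTRs, weighted by their sites. A was the listed base at 12.8% of PDCD4 sites against 26.1% of the same UTRs, G at 10.97% against 21.99%, and C at 23.4% against 21.95%. IgG sites gave 13.2%, 11.2% and 21.1% for A, G and C.

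The excess of U was largest over a few bases and reached further at a lower level, more so before the site than after it. U was above 48% from 1 base before the listed position to 2 bases after it, and between 29.99% and 37.8% of PDCD4 sites had U at any position from 3 to 20 bases away on either side. At 20 bases before the site it was still 32.6% (32.1 to 33.2), against 29.9% in the same UTRs. The base after the listed one was rarely G, at 2.999% of PDCD4 and 3.14% of IgG sites. In the window of 10 bases on each side, U made up 37.9% around PDCD4 sites and 30.03% around all positions of the same UTRs, a difference of 7.89 percentage points. Around IgG sites it was 38.3% against 31.1%, a difference of 7.19. Over sites with scores greater than 5 the window differences were 7.88 for PDCD4 (436 sites) and 3.48 for IgG (133 sites), and no interval was computed for them. At the listed base, U was found at 48.9% (44.2 to 53.5) of these PDCD4 sites and 52.6% (44.2 to 60.9) of these IgG sites. These shares were 21.2 and 23.2 percentage points above the same UTRs, so the 2 lists were alike at the base itself.

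**Figure D4:**
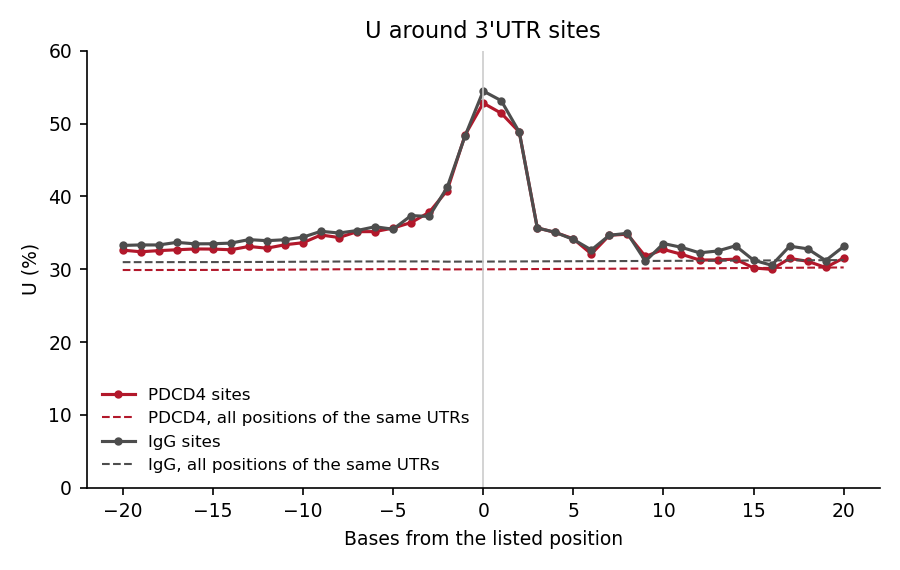
Percentage of U at each base from 20 before to 20 after the listed position of 3′UTR sites (solid lines), with the average over all positions of the same UTRs (dashed lines), for PDCD4 (red) and IgG (grey). The lists peak together, at 52.8% and 54.5% on the listed base.

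The share of U fell with the score, from 63.1% (61.4 to 64.7) of PDCD4 sites with a score of 1 to 50.6% (49.5 to 51.6) at a score of 3 and 49.0% (45.4 to 52.5) at 5. For IgG it was 61.4%, 52.7% and 50.5% at the same scores. UTRs richer in U had more sites on U, and the ratio to their own content changed little: it was 1.87 in UTRs with under 25% U and 1.71 in those with 35% or more for PDCD4, and 1.78 and 1.76 for IgG. Coding sites also stood on U more than their own sequence would give, at 34.3% against 20.99% for PDCD4 and 35.8% against 22.02% for IgG. This is a ratio of 1.64 and 1.63, near the 1.76 and 1.75 of the 3′UTR sites.

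Short motifs were searched on the transcribed strand within 20 bases on each side of a site, written in DNA letters and allowed to overlap. TTTTT, the core of the sites that proteins such as HuR and TIA1 bind, was found in 27.2% (26.7 to 27.7) of PDCD4 and 27.1% (26.5 to 27.8) of IgG windows. All positions of the same UTRs gave 13.8% and 14.7%, so the ratios were 1.97 and 1.85. ATTTA, the core of AU-rich elements, had ratios of 1.29 and 1.26. TGTANATA, the element of Pumilio proteins, was near its background in both lists, with ratios of 1.06 and 1.02, as were TGTGTG (1.01 and 1.11) and CCCC (0.97 and 0.93), while GGGG was at 0.89 and 0.88.

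TTTTT also had the highest ratio of all pentamers in both lists. Next came TTTTA, with ratios of 1.68 (PDCD4) and 1.62 (IgG), and then, again in both lists, the pentamer with C before the run of U, with 1.63 and 1.56. Runs of at least 5 U through the listed base were found at 13.9% (13.5 to 14.3) of PDCD4 and 13.8% (13.3 to 14.3) of IgG sites.

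AATAAA, the main polyadenylation signal, was rarer around sites than in the same UTRs, at 1.97% against 4.07% for PDCD4 (ratio 0.48) and 2.34% against 3.997% for IgG (0.59). Its usual place is within the nearly empty stretch at the transcript end. When the last 100 bases of every UTR were left out of sites and background alike, a comparison chosen after seeing the data, the ratios rose to 0.76 (0.70 to 0.83) and 0.85 (0.77 to 0.94).

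For genes, the scores of the 3′UTR sites were summed and given per 10000 cDNAs of the whole list, and the log2 ratio of PDCD4 to IgG was taken with 1 cDNA added to either sum. Of the 1867 genes with a sum of at least 20 over both lists, 436 had a ratio of 1 or more, 23.4% of those compared, and 213 had a ratio of -1 or less, 11.4%. The median was 0.17. Ratios of 1 or more thus made up 67.2% of the genes past either limit. When sums were given per 10000 cDNAs in 3′UTRs instead, all ratios shifted down, the median to -0.05, and the numbers became 350 and 325, or 51.9%. The amount of each RNA in the cells was not analysed here, and a sum is not corrected for UTR length.

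Several of the largest sums were far above the control. PLEC, which encodes the cytolinker plectin, had 390 cDNAs spread over 100 PDCD4 sites, whereas 6 IgG sites held 16, a log2 ratio of 3.96. MYH9, the heavy chain of non-muscle myosin IIA, had 127 PDCD4 sites with 389 cDNAs, and 11 with 29 in the control (3.13). ACTB, β-actin, had 101 sites with 399 cDNAs and 22 with 63 (2.08), and 35 of the PDCD4 sites were also intronic in another transcript. EIF5A, the hypusinated translation factor, had 87 sites with 365 cDNAs and 11 with 27 (3.14). CAVIN1, a coat protein of caveolae, had 77 sites with 241 cDNAs and 6 with 22 (2.83). The intervals of these 5 ratios, computed without the added cDNA, all lay above 1.5.

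Other large sums were large in both lists. SLC7A5, an amino acid transporter, led the PDCD4 list with 139 sites and 425 cDNAs, but also had 70 IgG sites with 198 cDNAs, a log2 ratio of 0.53 (0.29 to 0.78). NUCKS1, a nuclear DNA-binding protein, had 279 and 200 cDNAs (-0.09, -0.35 to 0.17). LARP1, which binds mRNAs of the translation machinery, had 379 and 100 (1.34, 1.04 to 1.67). FKBP5, a co-chaperone of the glucocorticoid receptor, had 285 and 101 (0.92), and the matricellular protein THBS1 had 256 and 94 (0.87).

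The largest sum of the IgG list belonged to PTGES, the prostaglandin E synthase, with 79 sites and 232 cDNAs, while PDCD4 had 47 sites and 121 cDNAs (log2 ratio -1.50, -1.82 to -1.19). Further IgG genes with lower PDCD4 values were EGFR, the receptor of epidermal growth factor (109 IgG and 92 PDCD4 cDNAs, -0.81), GPRC5A (151 and 144, -0.64) and YWHAZ, a 14-3-3 protein (108 and 100, -0.68). TNS4, a tensin, had 124 IgG and 185 PDCD4 cDNAs, equal to within counting error per 10000 cDNAs (0.01, -0.32 to 0.34). HIPK2 (134 IgG and 234 PDCD4 cDNAs, 0.23), SLC38A1 (109 and 138, -0.23) and TFCP2L1 (107 and 241, 0.60) completed the 10 largest IgG sums.

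The sites of these genes were spread differently along the UTR. In EIF5A, with a UTR of 653 bases on chromosome 17, 41 of the 87 PDCD4 sites lay in the 100 bases from position 296 after the stop codon, around the U run shown above. In ACTB, whose UTR has 600 bases on chromosome 7, the densest 100 bases, from position 22, held 33 of 100 placed sites, and 23 sites had scores greater than 5. In PLEC, on chromosome 8, the densest 100 of 1024 bases held 22 of 100 sites, and in MYH9, on chromosome 22, 24 of 123 sites lay in the densest 100 of 1388. In VIM, on chromosome 10, the densest 100 of 322 bases held 26 of 47 sites. In PTGES, on chromosome 9, the densest 100 of 1262 bases held 22 of 79 IgG sites (from position 97) and 17 of 47 PDCD4 sites (from position 155), 2 stretches that overlap.

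**Figure D5:**
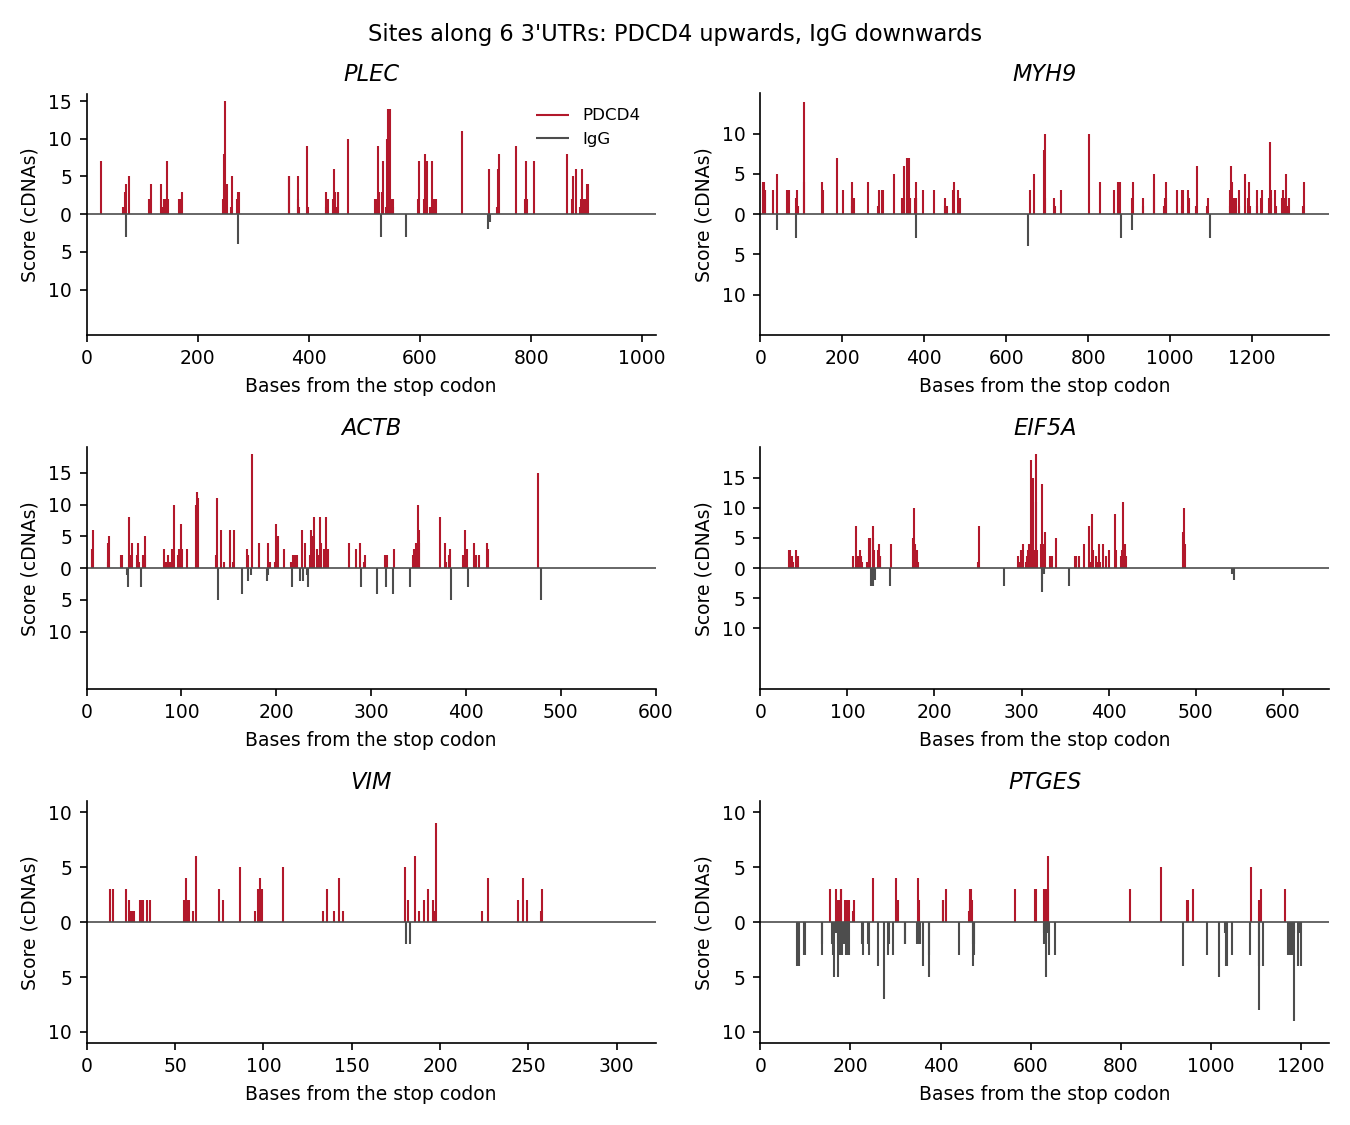
Score (cDNAs, y axis) of every placed 3′UTR site of PLEC, MYH9, ACTB, EIF5A, VIM and PTGES against its distance from the stop codon in spliced bases (x axis, ending at the UTR end), with PDCD4 upwards in red and IgG downwards in grey. PDCD4 sites cover the UTRs of the first 5 genes with fewer IgG sites, PTGES has more IgG sites, and the last bases of each UTR are empty.

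Among genes with a sum of at least 50 over both lists, the largest ratios belonged to SF3A3 and NONO, a splicing factor subunit and a paraspeckle protein, EME2, a subunit of a structure-specific endonuclease, SLC16A3, a lactate transporter, and PFN1, which binds actin monomers. The first 4 had 65, 50, 60 and 58 cDNAs in the PDCD4 list and no IgG site in the 3′UTR, so no fold is given. Many of their PDCD4 sites were also intronic in another transcript, namely all 20 of SLC16A3, 17 of 24 of EME2 and 14 of 21 of NONO, but none of SF3A3. PFN1 had 28 PDCD4 sites with 126 cDNAs and a single IgG site with 3. The smallest ratios belonged to VMP1 (10 PDCD4 and 42 IgG cDNAs, log2 ratio -2.53), the translation factor EIF4G2 (10 and 40, -2.47), CHP1 (19 and 56, -2.08), the transcription factor ELK4 (24 and 70, -2.07) and the helicase HELLS (13 and 37, -2.01). All 8 PDCD4 and 29 IgG sites of ELK4 were also intronic in another transcript. So were 5 of the 7 PDCD4 and 8 of the 14 IgG sites of HELLS. Of the HELLS sites, only 1, from the IgG list, lay in the UTR used for distances. The PDCD4 mRNA itself had 9 PDCD4 sites with 17 cDNAs in its 3′UTR and no IgG site. MUC1 had no 3′UTR site in either list.

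Genes were then grouped by function. Of 13 intermediate filament and plakin genes compared, 8 had a ratio of 1 or more and none a ratio of -1 or less, against 23.4% and 11.4% of all genes, and the median ratio was 1.54 against 0.17. PLEC (above) was joined by VIM, vimentin, with 47 sites and 125 cDNAs against 2 sites and 4 cDNAs (log2 ratio 4.09). The 4 keratins compared were KRT81 (188 and 42 cDNAs, 1.57), KRT5 (146 and 33, 1.54), KRT6A (101 and 13, 2.30) and KRT7 (59 and 10, 1.88), whose 17 PDCD4 sites were all also intronic in another transcript, and the lamin LMNB2 had 161 and 46 (1.22). All 55 PDCD4 and 13 IgG sites of LMNB2 were also intronic in another transcript. Keratin genes share sequence with each other, so reads may have been split among them.

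Of 25 actin cytoskeleton genes, 8 (32%) were at 1 or more and 2 at -1 or less, against 23.4% and 11.4% of all genes. Their median of 0.38 became 0.16 with 3′UTR totals. MYH9, ACTB and PFN1 led the list, while LASP1 (131 and 82 cDNAs, 0.10) and the actin linker MSN (93 and 70, -0.16) had nearly the same share in both lists. Of 24 adhesion and extracellular matrix genes, 9 (37.5%) were at 1 or more and 2 at -1 or less, against the same shares of all genes. Their median of 0.65 became 0.43 with 3′UTR totals. The hyaluronan receptor CD44 had 149 and 33 cDNAs (1.57), the integrin ITGA3 74 and 20 (1.27), and the catenin CTNND1 73 and 49 (0.00). Of the 26 PDCD4 sites of ITGA3, 24 were also intronic in another transcript. All 23 PDCD4 sites of CTNND1 and 17 of its 20 IgG sites also lay in a 3′UTR of another annotated gene.

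Ratios of 1 or more were held by 58.3% of the chaperones and 50% of the glycolytic enzymes compared, against 23.4% of all genes. Of all genes 11.4% were at -1 or less. Of 12 chaperones, 7 were at 1 or more and 2 at -1 or less (median 1.20), with HSPA9 at 64 and 10 cDNAs (a log2 ratio of 2), HSP90AB1 at 94 and 25 (1.30), calnexin, CANX, at 190 and 59 (1.10) and HSP90AA1 at 126 and 43 (0.96). In HSPA9, 24 of the 25 PDCD4 sites were also intronic in another transcript, and in CANX 26 of 76. Of 10 glycolytic enzymes, 5 were at 1 or more and none at -1 or less (median 0.79). Enolase, ENO1, had 50 and 7 cDNAs (2.10) and pyruvate kinase, PKM, 103 and 22 (1.61), whereas LDHA (50 and 31, 0.10) and GPI (60 and 46, -0.19) were near 0.

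For the other lists the shares of all genes were again 23.4% at 1 or more and 11.4% at -1 or less. Of 40 RNA-binding protein genes, 8 were at 1 or more and 5 at -1 or less. Their median of 0.16 became -0.06 with 3′UTR totals. Nucleolin, NCL, had 118 and 10 cDNAs (2.87) and HNRNPA1 46 and 66 (-1.08). All 21 PDCD4 and 28 IgG sites of HNRNPA1 were also intronic in another transcript. Of 19 translation factors, 3 were at 1 or more and 2 at -1 or less (median -0.19). They included EIF4A1, the helicase that PDCD4 inhibits, with 67 and 13 cDNAs (1.71), although 19 of its 20 PDCD4 sites also lay in an exon of an ncRNA gene. EIF2S3 had 61 and 42 (-0.04).

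Among 10 genes of short-lived and immediate early transcripts, 3 were at 1 or more and 3 at -1 or less (median -0.22). ZFP36L1, which itself binds AU-rich elements, had 128 and 42 cDNAs (1.02), and 26 of its 49 PDCD4 sites were also intronic in another transcript. Of 9 transporters and receptors of epithelial growth, 1 was at 1 or more and 1 at -1 or less (median -0.03). Of the ribosomal protein genes, 6 reached the limit on the sum. RPL13A was at 1 or more (26 and 4 cDNAs, 1.87) and the median was -0.07. A single histone gene was compared, H3-3B (53 and 13, 1.38). Of mRNAs known as translational targets of PDCD4, BCL2L1 (33 and 16 cDNAs, 0.43) and SOD2 (46 and 21, 0.53) were compared, and neither passed a limit. XIAP had 10 and 3 cDNAs, below the limit on the sum.

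Because the 3′UTR and the CDS of a gene are parts of 1 transcript, their site density was compared within genes, so that the RNA amount of a gene enters both. In the PDCD4 list 650 genes had at least 20 sites in both regions together. The median log2 ratio of 3′UTR to CDS density was 0.44 (0.36 to 0.57). Of these genes 191 (29.4%) were at 1 or more and 101 (15.5%) at -1 or less. In the IgG list 146 genes qualified, with a median of 1.39 (1.26 to 1.59), and 95 (65.1%) were at 1 or more and 1 (0.685%) at -1 or less. Summed over all genes with a site, the PDCD4 list had 1.62 3′UTR sites per kb and 1.82 coding sites per kb, a log2 ratio of -0.17 (-0.19 to -0.15), opposite in sign to its median. The IgG list had 1.05 and 0.69 (0.60, 0.56 to 0.63).

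In the 128 genes that qualified in both lists, the ratio was lower with PDCD4 in 101 (78.9%) and the median difference was -0.83. The comparison was repeated within the exon of the stop codon, a choice made after seeing the data, where at least 100 bases of each region were required and the last 60 bases of the exon left out. The medians there lay close together and the summed densities did not. The medians were 0.17 (-0.12 to 0.42) over 187 genes for PDCD4 and 0.26 (-0.12 to 0.51) over 58 genes for IgG. In the 53 genes with both values the PDCD4 ratio was lower in 28 and higher in 24, with a median difference of -0.11. Summed over all genes, however, the log2 ratio within this exon was -0.42 (-0.46 to -0.37) in the PDCD4 list, against 0.26 (0.19 to 0.34) in the IgG list.

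Within genes, PDCD4 sites favoured the 3′UTR in KRT81 (53 UTR and 49 coding sites, log2 ratio of densities 2.26, 1.70 to 2.82), KRT5 (48 and 50, 2.21, 1.64 to 2.78), EIF5A (87 and 10, 2.56, 1.68 to 3.57) and MYH9 (123 and 104, 2.32, 1.95 to 2.70). IgG sites did so too in KRT81 (13 and 9 sites, 2.65, 1.45 to 3.90) and KRT5 (15 and 10, 2.83, 1.70 to 4.01), while in MYH9 the IgG ratio was 0.78 (-0.54 to 1.98). Within the exon of the stop codon the PDCD4 ratio of KRT81 was 0.35 and that of KRT5 2.15. In PLEC, 100 UTR sites stood beside 868 coding sites, which per base is a ratio of 0.62 (0.32 to 0.92), and the IgG ratio was 1.76 (0.39 to 2.96). ACTB had equal density to within counting error, with 100 and 182 sites (0.05, -0.31 to 0.39), and so had THBS1 with 93 and 89 (-0.16, -0.58 to 0.26), whereas the IgG ratios were 0.29 (-0.49 to 1.05) for ACTB and 2.69 (1.47 to 4.15) for THBS1. The coding sequence was the denser region in HSP90AA1 (48 and 211 sites, -0.95, -1.41 to -0.51), NCL (46 and 99, -0.68, -1.19 to -0.18) and HNRNPU (31 and 63, -1.76, -2.39 to -1.15), although 37 of all 38 PDCD4 sites in 3′UTRs of HNRNPU were also intronic in another transcript. The IgG ratio of HSP90AA1 was 0.63 (-0.18 to 1.42). These densities used the whole annotated UTR, of which the later part held no site in some genes. The last PDCD4 site lay at base 680 of 1660 in NCL, 582 of 970 in HSP90AA1 and 2033 of 4097 in THBS1. In these genes the ratio, and its sign, therefore depend on the annotated UTR end, and shorter UTRs were not tested.

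By list, all 7 ribosomal protein genes with at least 20 PDCD4 sites were at -1 or less, against 15.5% of all genes, with a median of -2.74. Over all 87 ribosomal protein genes of the list the median UTR had 174 bases, and the part of the nearly empty last 60 bases in these ratios was not tested. Of 13 intermediate filament and plakin genes, 7 were at 1 or more, against 29.4% of all genes, and 2 at -1 or less (median 1.28). The control was high too: of 5 such genes that qualified in the IgG list, 4 were at 1 or more (median 1.76), against 65.1% of all its genes. Of 19 adhesion and matrix genes 6 were at 1 or more, near the share of all genes, and 5 at -1 or less (median -0.04).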

How the data were processed

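iCLIP was measured in MCF10A cells, with 2 PDCD4 and 2 IgG samples. The authors mapped reads to the Ensembl release 88 genome and called cross-linked sites with iCount, whose results they report at an FDR of 5%, and deposited 1 list per immunoprecipitation with replicates pooled. The values in these deposited lists are raw cDNA counts per site, not normalised. Per the paper's methods, IgG sites were subtracted from the PDCD4 replicates before peak calling. A limit of scores greater than 5 is described there but was not applied in the lists. The settings of alignment and of cDNA collapsing are not given in the sources used here.

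Here, positions were annotated on GENCODE release 44 and GRCh38, the same build but a later release. The label of the file named the annotated gene for 97.4% of PDCD4 and 97.2% of IgG 3′UTR sites. Distances used 1 transcript for each of 19587 genes (MANE Select for 18780, Ensembl canonical for 758, the longest 3′UTR for 49). Shares have Wilson intervals, and base and motif backgrounds count every position of the same UTRs. Gene ratios used sums of at least 20, an added cDNA count of 1 and limits of 1 and -1. The density ratios of 3′UTR to CDS used 0.5 added sites.

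The members and the gene lists were chosen with earlier results of these data known. Named genes were the 10 largest sums of each list, the 5 largest and 5 smallest ratios, up to 4 genes per list, the genes of the 10 highest sites, and genes the paper names. Examples outside this rule were picked with their values in view. The alternatives tried were score limits, the unit counted, transcripts, shared positions, dominant genes, overlap, merging, windows, totals, filters and weights. The functions were tested on simulated data. Python 3.11.15, numpy 2.4.6, pandas 2.3.3, scipy 1.17.1, pysam 0.24.0 and matplotlib 3.10.9 were used. Some items are not reported here.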

Additional observations from a re-analysis of the deposited data

How the results depend on the processing

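The order of the lists turned in 1 case: above a score of 10 the 3′UTR share was 12.1% (PDCD4) and 14.3% (IgG), the latter from 1 IgG site. The median gene ratio changed sign, from 0.17 to -0.05, with 3′UTR totals. With scores greater than 5, the share became 19.7% (PDCD4) and 17.8% (IgG). The share was 20.4% for PDCD4 by summed score, 20.7% and 17.3% with protein-coding transcripts only, 20.2% and 17.0% without the 10 largest genes of each list, 16.1% and 13.2% without overlapping annotation, and 18.9% and 16.4% after merging sites within 20 bases. The median relative position was 42.8% for IgG above a score of 5. For PDCD4 it was 38.1% with protein-coding transcripts, 36.9% with equal weight per UTR and 36.8% in UTRs of at least 1000 bases. Median UTR lengths were 1871 and 2019 above a score of 5, 2644 and 2945 weighted by score, and 2215 and 2433 with the longest protein-coding UTR. The excess of U was 3.48 points for IgG above a score of 5, 6.94 and 6.52 by summed score, 11.5 and 10.8 with windows of 5 bases, and 4.96 and 4.59 with 20. With motif windows of 10 bases, TTTTT ratios were 2.95 and 2.74 and AATAAA ratios 0.42 and 0.52. Without the last 100 bases the AATAAA ratios were 0.76 and 0.85. Genes at 1 or more numbered 19 (7 at -1 or less) with scores greater than 5, 117 (32) by sites, 115 (37) with sums of at least 50, 2924 (1951) with no minimum, and 288 with 5 cDNAs added, while 325 were at -1 or less with 3′UTR totals. The PDCD4 median of 3′UTR over CDS density was 0.10 above a score of 5 and 0.35 by summed score, and within the exon of the stop codon it was 0.17, with 0.26 for IgG. IgG had no gene with enough sites above a score of 5. The other alternatives moved values by less than their intervals, or counts by less than 1.5 times.

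No paired analysis was possible because the lists pool the replicates, and for the same reason leaving out a replicate was not possible. The alternative without repeats was not run, as the genome used has no repeat masking. The number of IgG sites limits the IgG values at scores greater than 5 and the density ratios within genes.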
